A study of Mus musculus with 6 samples.

Results

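Peaks of ZFP57 and of its co-repressor KAP1 were examined at 8 loci of pluripotency transcription factors in mouse embryonic stem cells (ESCs). The 8 genes were Pou5f1, Sox2, Nanog, Klf4, Esrrb, Tbx3, Zfp42 and Prdm14, out of 22350 protein-coding genes on chromosomes 1 to 19 and X. A peak belonged to a locus when it lay wholly inside a window formed by the gene body and 20 kb on either side, in mm9 coordinates. The windows held 29 of the 123233 peaks in the 4 lists. There were 23 KAP1 peaks in line BJ1, 5 KAP1 peaks and 1 ZFP57 peak in line JB1, and no ZFP57 peak in BJ1.

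JB1 came from a JF1 mother crossed with a B6 father, and BJ1 from the opposite cross, B6 mother with JF1 father. Both are male F1 hybrid lines with no targeted allele, grown without feeder cells in medium with LIF. JF1 is a Mus musculus molossinus strain and B6 a laboratory strain mostly of domesticus origin. Chromatin immunoprecipitation with sequencing gave 1 ZFP57 and 1 KAP1 library in each line, so no value below has a replicate and no test was made between the lines.

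ZFP57 is a KRAB zinc-finger protein that binds methylated DNA at imprinting control regions and recruits KAP1 (Trim28), a scaffold for histone and DNA methyltransferases. KAP1 is also brought by many other KRAB zinc-finger proteins to endogenous retroviruses and other repeated DNA, where it holds chromatin in a repressed state. OCT4 (the product of Pou5f1), SOX2 and NANOG form the core of the transcription network that keeps ESCs self-renewing. KLF4, ESRRB, TBX3 and PRDM14 support the naive state, and Zfp42 (also called Rex1) encodes a zinc-finger protein widely used as a marker of it. Expression was not measured in these libraries, and the lists cannot be used to check the cell type through RNA.

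The stretches below were read from mm9 inside the peaks that the results turn on and are written along the strand of the gene. They were chosen after the peaks were seen. The hexanucleotides TGCCGC and GGCCGC are the ZFP57 motif and its variant, and TCAAGGTCA is a binding sequence of the estrogen-related receptor family to which ESRRB belongs. Matches were exact and taken on both strands, so a match on the opposite strand appears as its reverse complement. Capitals mark GGCCGC in the first 4 lines, which come from the ZFP57 peak of Zfp42 and from KAP1 peaks of 3 other genes.
Zfp42, upstream, chr8:44404959-44405056, minus strand: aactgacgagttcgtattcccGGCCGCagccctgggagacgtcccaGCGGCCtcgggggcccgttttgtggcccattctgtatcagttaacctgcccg
Klf4, past the gene end, chr4:55527659-55527797, minus strand: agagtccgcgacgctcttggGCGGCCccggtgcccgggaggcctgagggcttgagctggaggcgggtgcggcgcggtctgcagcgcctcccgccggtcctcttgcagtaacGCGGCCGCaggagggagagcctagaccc
Nanog, upstream, chr6:122655923-122656020, plus strand: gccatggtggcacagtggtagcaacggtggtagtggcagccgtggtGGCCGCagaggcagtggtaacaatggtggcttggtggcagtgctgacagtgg
Sox2, past the gene end, chr3:34552627-34552724, plus strand: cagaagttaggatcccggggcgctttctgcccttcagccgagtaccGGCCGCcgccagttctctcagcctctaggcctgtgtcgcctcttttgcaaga
Capitals mark TCAAGGTCA in the next 2 lines, from a single Esrrb peak that holds both matches found inside the peaks of that gene.
Esrrb, intron, first match, chr12:87842621-87842721, plus strand: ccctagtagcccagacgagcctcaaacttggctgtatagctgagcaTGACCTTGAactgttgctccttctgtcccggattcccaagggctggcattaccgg
Esrrb, intron, second match, chr12:87842963-87843063, plus strand: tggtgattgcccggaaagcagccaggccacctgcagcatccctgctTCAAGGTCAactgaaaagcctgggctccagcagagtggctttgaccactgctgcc
The centres of the Pou5f1 peak nearest to the start and of the Tbx3 peak found in both lines held no motif searched, and capitals there mark CpG, the dinucleotide that carries DNA methylation.
Pou5f1, upstream, chr17:35641801-35641950, plus strand: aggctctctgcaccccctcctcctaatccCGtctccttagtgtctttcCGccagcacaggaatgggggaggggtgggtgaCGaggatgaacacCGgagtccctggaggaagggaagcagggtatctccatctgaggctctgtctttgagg
Tbx3, upstream, chr5:120115951-120116100, plus strand: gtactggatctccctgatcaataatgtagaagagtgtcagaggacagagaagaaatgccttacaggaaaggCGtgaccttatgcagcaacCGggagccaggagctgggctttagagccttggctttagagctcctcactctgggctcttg

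KAP1 peaks were listed at 7 of the 8 loci in BJ1 and at 3 of 8 in JB1. Across all protein-coding genes the same windows held a KAP1 peak at 78.0% of genes in BJ1 and at 46.2% in JB1, so both counts were close to what the lists gave at genes in general. A ZFP57 peak was listed at 1 of the 8 loci in JB1, against 17.0% of all genes, and at 0 of 8 in BJ1, against 4.08%. The lists differed in length throughout the genome, with 10667 ZFP57 and 38713 KAP1 peaks in JB1 and 1318 ZFP57 and 72535 KAP1 peaks in BJ1. They hold positions only, the read depth is unknown, and a difference between the crosses cannot be told apart from one between the libraries in depth or enrichment.

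Pou5f1, Sox2, Nanog and Klf4 carried KAP1 peaks in BJ1 and none in JB1. This pattern held at 33.0% of all genes. Esrrb, Tbx3 and Zfp42 carried KAP1 peaks in both lines, as did 45.0% of all genes. No member had them in JB1 alone (1.20% of all genes), and Prdm14 was the single member with no KAP1 peak in either line (20.8% of all genes).

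**Figure D1:**
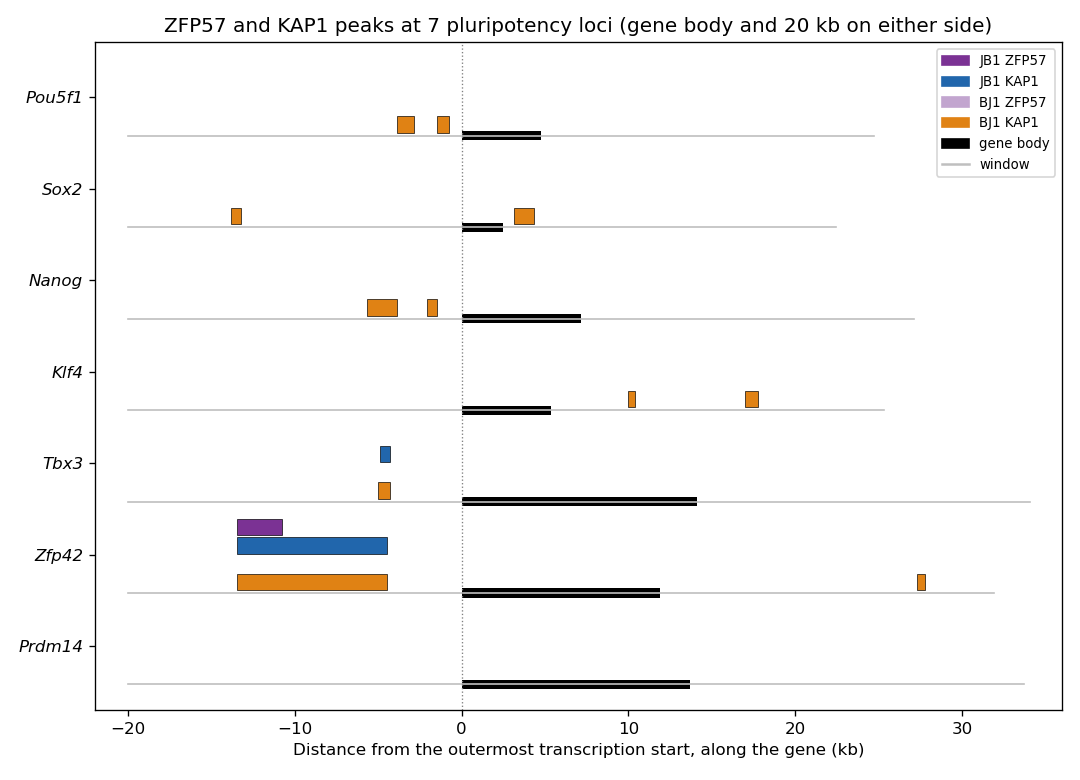
Peaks at 7 of the loci, with the distance from the outermost transcription start along the gene in kb on the x axis and 1 row per gene. Coloured boxes are peaks of each list, black bars gene bodies and grey lines the windows; Esrrb, whose gene body is 161 kb long, is drawn separately. Orange BJ1 KAP1 peaks stand alone at Pou5f1, Sox2, Nanog and Klf4, and Zfp42 has the single ZFP57 peak.

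At Pou5f1 (chr17:35642982-35647721, plus strand) both BJ1 KAP1 peaks lay upstream of the gene in intergenic DNA. The nearer one, 750 bp wide at chr17:35641501-35642250, ended 732 bp before the outermost start. The farther one was 1050 bp wide and spanned 3.88 to 2.83 kb upstream. Together they covered 4.02% of the window, and 18.2% of genes had at least that coverage. In JB1 the nearest KAP1 peak lay 22.8 kb and the nearest ZFP57 peak 26.8 kb upstream of the gene, both just outside the window, and the nearest BJ1 ZFP57 peak was 724 kb away. Neither Pou5f1 peak in BJ1 held any of the motifs searched.

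Pou5f1 was the only member with a KAP1 peak within 1 kb of an annotated start of a coding transcript. That made 1 of 8 loci in BJ1, against 14.5% of all genes, and 0 of 8 in JB1, against 3.98%. KAP1 at the other loci was listed in flanks and within the Esrrb gene body. Of the 23 BJ1 peaks, 12 overlapped a gene body, all in Esrrb, 7 lay upstream and 4 downstream. Of the 5 JB1 peaks, 3 were in the Esrrb gene body and 2 lay upstream of Tbx3 and Zfp42. A KAP1 peak wholly inside the gene body was thus listed at 1 of 8 loci in each line. Over all genes the share was 34.4% in BJ1 and 17.3% in JB1.

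Sox2 (chr3:34548927-34551383, plus strand) lies inside Sox2ot, a long non-coding transcript, and both of its BJ1 KAP1 peaks fell within that transcript. The wider, 1200 bp at chr3:34552051-34553250, overlapped a Sox2ot exon 668 bp past the end of Sox2. It held 39 CpG, or 32.5 per kb, against a median of 15.0 per kb over the BJ1 KAP1 list, and 1 GGCCGC. The other peak, 600 bp wide, began 13.8 kb upstream in a Sox2ot intron. The 2 peaks covered 4.24% of the window. No JB1 KAP1 peak lay closer than 136 kb to the gene, and the nearest ZFP57 peaks were 146 kb away in JB1 and 242 kb in BJ1.

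At Nanog (chr6:122657507-122664651, plus strand) the BJ1 KAP1 peaks were again upstream and intergenic. The wider, at chr6:122651851-122653650, measured 1800 bp and spanned 5.66 to 3.86 kb upstream, and it was the widest BJ1 peak at the 8 loci apart from the one at Zfp42. The nearer one, 600 bp wide, spanned 2.06 to 1.46 kb upstream and held the GGCCGC printed above. In that peak 20.3% of all 50-base stretches, the length of the reads, had an exact copy elsewhere in mm9. The 2 peaks covered 5.09% of the window, and JB1 had its nearest KAP1 peak 27.6 kb downstream.

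Klf4 (chr4:55540013-55545347, minus strand) had both BJ1 KAP1 peaks downstream, between the gene and the far end of the window. The wider, 750 bp at chr4:55527601-55528350, lay 17.0 to 17.7 kb from the start. It was the most CpG-dense of the member peaks at 61.3 CpG per kb, a density reached by 1.85% of the BJ1 KAP1 list, and 59.9% of its bases were G or C. It held 3 GGCCGC matches, 2 of them overlapping on opposite strands as GCGGCCGC, and 1 CCACACCC, the CACCC type of sequence bound by KLF proteins. The other, 450 bp wide, lay 9.95 to 10.4 kb from the start with 1 GGCCGC. No 50-base stretch of either peak had an exact copy elsewhere, and the nearest JB1 KAP1 peak was 104 kb from the gene.

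Esrrb (chr12:87702067-87862578, plus strand) carried 15 of the 29 peaks, and the 7 other loci 14. BJ1 had 12 KAP1 peaks that overlapped the gene body, 11 of them wholly inside it, the first beginning 35.9 kb and the last 160 kb from the start, of which 10 were intronic and 2 overlapped annotated untranslated exon sequence at the end of the gene. At least 12 BJ1 KAP1 peaks were found in the windows of 274 genes, 1.23% of all. The gene is long, and per length the locus was less unusual: peaks covered 4.79% of its window, and 13.9% of genes had at least that coverage. JB1 had 3 KAP1 peaks, covering 0.673%, and 12% of genes had 3 or more.

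The 3 JB1 peaks at Esrrb differed in their match to BJ1. The peak at chr12:87797251-87797850 lay within a BJ1 peak of 1200 bp (chr12:87797101-87798300), and the peak at chr12:87838651-87839100 within one of 1350 bp (chr12:87837901-87839250), the widest of the gene in BJ1. The peak at chr12:87761251-87761550, 300 bp wide, ended 1044 bp before an internal start of a coding transcript and had no BJ1 peak within 12.8 kb. Among the BJ1 peaks, the one beginning 140334 bp from the start held both TCAAGGTCA matches found inside Esrrb peaks. This sequence was in 1.94% of the BJ1 KAP1 list. The peak beginning 92.0 kb from the start held the only match inside the peaks of the 8 loci to ATTTGCAT, the octamer bound by OCT4. No peak of ZFP57 was closer than 454 kb in JB1.

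**Figure D2:**
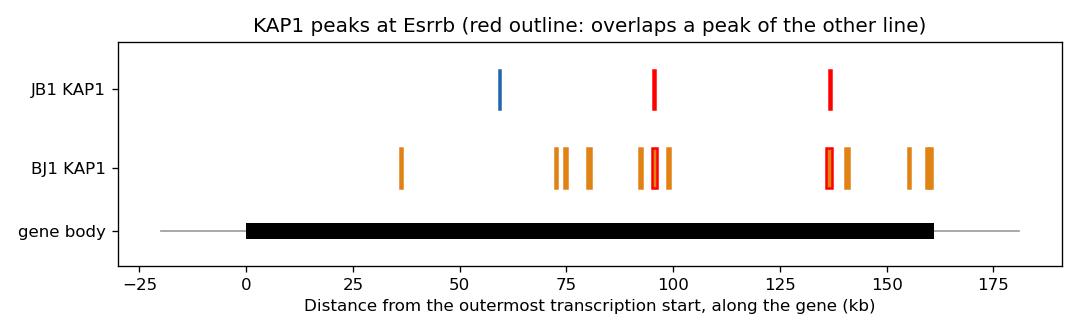
KAP1 peaks at Esrrb, with the distance from the outermost transcription start along the gene in kb on the x axis and 1 row per line; the black bar is the gene body and the grey line the window. Red outlines mark 2 peaks in each line that overlap the other line, and the remaining 10 BJ1 peaks and 1 JB1 peak have no partner.

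At Tbx3 (chr5:120120678-120134733, plus strand) each line had 1 KAP1 peak, and the peaks overlapped. The JB1 peak, chr5:120115801-120116400, and the BJ1 peak, chr5:120115651-120116400, had the same end and differed in width by 1 grid step of 150 bp. They lay 4.28 kb upstream, in an intron of the non-coding transcript Gm2301, and held none of the motifs searched. They covered 1.11% of the window in JB1 and 1.39% in BJ1, and 52.8% of genes had at least that coverage in BJ1.

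Zfp42 (chr8:44380422-44392363, minus strand) was the locus with the widest peaks and the only one with ZFP57. KAP1 was listed over chr8:44396851-44405850 in both lines, with the same start and end, 9000 bp wide and 4.49 to 13.5 kb upstream of the start. Peaks at least this wide made up 0.108% of the KAP1 list in JB1 and 0.0607% in BJ1. KAP1 covered 17.3% of the window in JB1, where 104 genes (0.465%) had at least that coverage, and 18.2% in BJ1, where 131 genes (0.586%) did. Equal bounds were not the rule: 18.6% of all JB1 KAP1 peaks had a BJ1 peak with the same start and end, and 5 of the 42 JB1 peaks of at least 9000 bp did. BJ1 had a second Zfp42 peak, 450 bp wide, 27.3 kb from the start.

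The JB1 ZFP57 peak (chr8:44403151-44405850) lay inside the KAP1 peak at its end away from the gene and shared that end with it. It was 2700 bp wide, and 1.06% of the JB1 ZFP57 list was at least as wide. It held 3 GGCCGC matches and no TGCCGC, and 2 of the matches, printed above, began 25 bp apart on opposite strands. Matches to either motif that begin less than 38 bp apart were counted as a cluster, which 6.07% of the JB1 ZFP57 list held, while 47.7% of that list held TGCCGC and 8.51% GGCCGC. The list had a median width of 450 bp, and these shares were not adjusted for width. The full KAP1 peak held 2 TGCCGC and 5 GGCCGC. Of the KAP1 peaks of at least 9000 bp, 24 of 42 in JB1 (57.1%) overlapped a ZFP57 peak of the same line, and 6 of 44 in BJ1 (13.6%). Over the whole KAP1 lists the shares were 14.1% in JB1 and 1.00% in BJ1. BJ1 had no ZFP57 peak at Zfp42, and the nearest was 1378201 bp from the JB1 peak.

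CpG were dense along the domain. Windows of 150 bp held a median of 6 CpG inside the ZFP57 peak, 4 in the rest of the KAP1 peak and 2 in the flanking DNA examined. The KAP1 peak as a whole had 36 CpG per kb, and 16.2% of the JB1 and 13.8% of the BJ1 KAP1 list had as many or more. The sequence was also largely repeated: 92.1% of its 50-base stretches had an exact copy elsewhere in mm9, with a median of 11 other copies, and in the ZFP57 peak the share was 94.9% with a median of 16. Each of the 2 clustered GGCCGC occurred with its 6 flanking bases on either side at 57 and 14 other places. Among KAP1 peaks of at least 9000 bp, more than 50% of the stretches were repeated in 33 of 42 peaks in JB1 and in 36 of 44 in BJ1. How reads with several equal matches were placed is not given in the sources used here, and its part in the result was not tested.

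**Figure D3:**
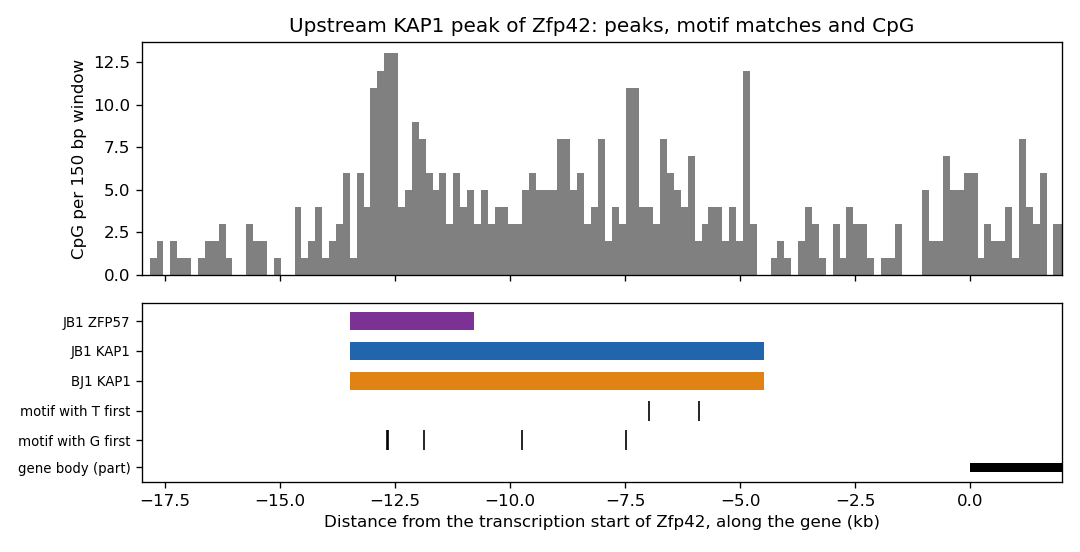
The upstream KAP1 peak of Zfp42, with the distance from the transcription start along the gene in kb on the x axis. Upper panel: CpG in each 150 bp window. Lower panel: peaks as bars and matches to TGCCGC (T first) and GGCCGC (G first) as ticks; the clustered pair, 25 bp apart, appears as 1 thick tick under the ZFP57 peak.

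Prdm14 (chr1:13103538-13117244, minus strand) had no peak of either protein in either line. The nearest KAP1 peak lay 24.4 kb from the gene in BJ1 and 48.4 kb in JB1, on the downstream side in both. ZFP57 was not listed within 217 kb in BJ1 or 247 kb in JB1.

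The Zfp42 domain stood apart from the other member peaks in its share of repeated sequence. Apart from that domain and the 600 bp Nanog peak, the largest share of repeated 50-base stretches was 12%, in the small Zfp42 peak of BJ1, and 20 of the 29 peaks had none. The Zfp42 motif matches accounted for both TGCCGC found in peaks at the 8 loci, and sequence outside the peaks was not searched for motifs.

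Peaks were compared between the lines by overlap of at least 1 bp. Of the 5 JB1 KAP1 peaks at the loci, 4 were found in BJ1, or 80.0% (95% exact Clopper-Pearson interval 28.4 to 99.5%, for counting error only), against 85.9% of the whole list. Of the 23 BJ1 KAP1 peaks, 4 were found in JB1, or 17.4% (4.95 to 38.8%), against 45.3% of the whole list. The 12 Esrrb peaks share a gene and are not independent of each other. Member peaks of BJ1 that were found in JB1 had a median width of 1275 bp, and those not found had 750 bp. In the whole BJ1 list these medians were 750 and 600 bp.

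The median number of BJ1 KAP1 peaks per window was 2 at the 8 loci and 2 over all genes. Per 100 kb of window the medians were 4.33 and 2.33, and the median share of the window covered was 4.13% against 1.48%. In JB1 the median was 0 at the loci and over all genes on each of these scales. The coverage values in BJ1 ranged from 0 at Prdm14 through 1.39% at Tbx3 and 2.65% at Klf4 to between 4.02 and 5.09% at Pou5f1, Sox2, Esrrb and Nanog, with Zfp42 far above at 18.2%.

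**Figure D4:**
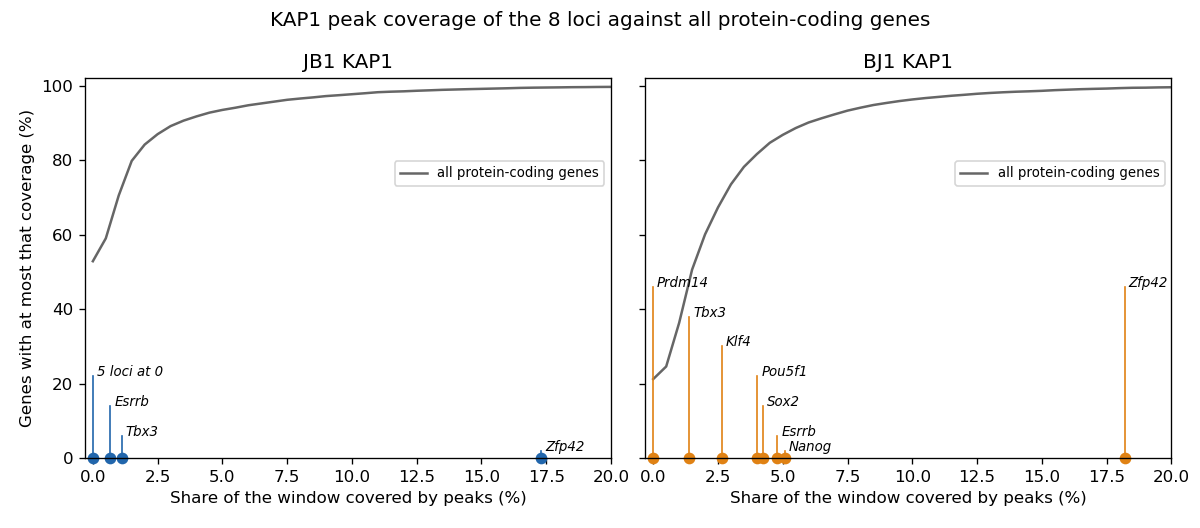
Share of the window covered by KAP1 peaks, in percent, on the x axis, and the percent of protein-coding genes with at most that coverage on the y axis, for JB1 (left) and BJ1 (right). Grey curves are all 22350 genes, and points on the x axis with labelled stems are the 8 loci (stem height carries no value). In JB1, 5 loci were at 0, and in both lines Zfp42 stood far to the right.

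The motifs in the BJ1 KAP1 peaks at the loci were counted beside those of the whole list, with no test. TGCCGC was in 1 of 23 peaks (4.35%) against 20% of the list, and GGCCGC in 6 (26.1%) against 12.8%. Either motif was in 26.1% against 28.0%. CCACACCC was in 5 peaks (21.7%, list 6.08%) and ATTTGCAT in 1 (4.35%, list 5.36%). These shares are counts over few peaks and were not adjusted for peak width. Of the 5 JB1 KAP1 peaks, only the Zfp42 peak held TGCCGC or GGCCGC, against 39.4% of the list. The median GC content was 49.6% at the loci and 47.2% in the list for BJ1, and 50.7% and 46.4% for JB1.

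The same windows were counted at other genes of the ESC network. Of 25 further ESC regulators, 24 had a BJ1 KAP1 peak in the window and 10 a JB1 KAP1 peak, and none had a ZFP57 peak in either line. The exception was Nr0b1, a nuclear receptor gene on the X chromosome, with no peak in any list. Of 15 primed-state and lineage genes, 11 had a KAP1 peak in BJ1 and 4 in JB1. Otx2, a homeobox gene of primed pluripotency and the anterior epiblast, had the only ZFP57 peak of the 3 gene lists, in BJ1. Fgf5, T (brachyury), Gsc and Sox17 had no KAP1 peak in either line. Of 10 housekeeping genes, 8 had a KAP1 peak in BJ1 and 3 in JB1, and Hprt and B2m had none. The median coverage by BJ1 KAP1 was 3.96% for the ESC regulators, 1.25% for the lineage genes and 2.39% for the housekeeping genes. Over all genes the shares were 78.0% for BJ1 KAP1, 46.2% for JB1 KAP1, 17.0% for JB1 ZFP57 and 4.08% for BJ1 ZFP57.

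**Figure D5:**
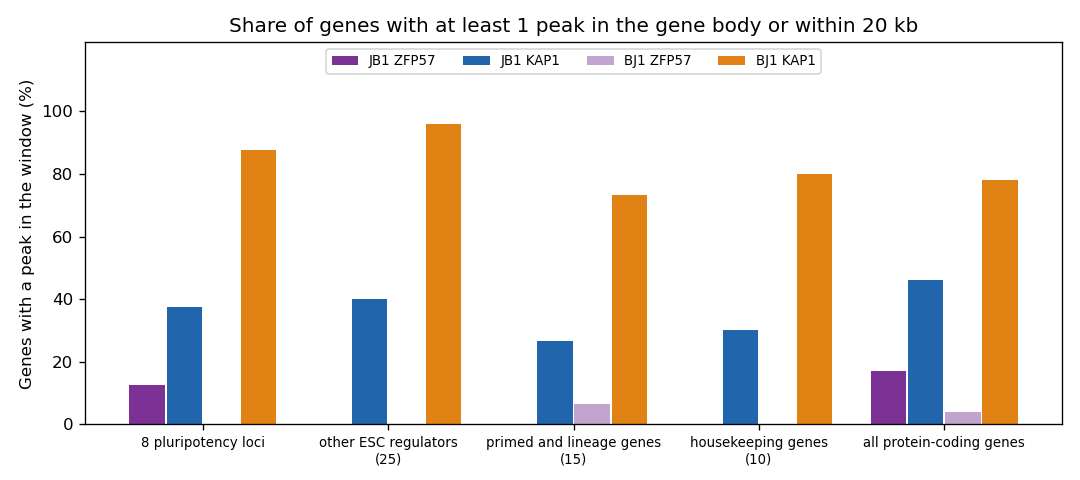
Percent of genes (y axis) with at least 1 peak in the gene body or within 20 kb, for the 8 loci, 3 other gene lists with their number of genes in brackets, and all protein-coding genes. Bars are the 4 peak lists. BJ1 KAP1 is the tallest bar in each group, and ZFP57 is at 0 for the ESC regulators and housekeeping genes.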

How the data were processed

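ChIP-seq was made from 6 libraries: ZFP57, KAP1 and input in JB1 and in BJ1. The 2 inputs were not used here. The authors trimmed 50-base single-end reads (CASAVA 1.8.2), aligned them to mm9 with Bowtie 0.12.7, processed them with SAMtools 0.1.18 and bedtools 2.14.3-1 (versions from the submitters' processing notes), called peaks with MACS at P = 1e-05 and deposited 1 list of peak positions per library, with bounds on a 150 bp grid and no heights. Gene models were GENCODE M1 protein-coding genes of the same build. Peaks were counted and compared by overlap in Python 3.11.15. All member peaks were described. Genes of other lists were named where a ZFP57 peak was in the window or where no KAP1 peak was. Sox1 had no match and was not analysed here. The members and lists were chosen with earlier results of these data known. Copies of 50-base stretches were sought as exact matches on either strand of chromosomes 1 to 19, X, Y and M, outside the peak itself. Overlap and coverage steps were checked on simulated data. Planted motifs were sought there by a separate search, and the motif counts themselves were not checked. With 1 library per line and antibody no test was made. Alternatives varied the window, promoter size, overlap rule, peak width, motif and chromosomes. 1 stretch of a peak at Sox2 is not reported here.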

Additional observations from a re-analysis of the deposited data

How the results depend on the processing

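Of 84 alternatives over 20 results, 29 moved, and the other 55 kept medians equal, counts within 1.5 times and shares within the 95% counting interval of the value reported, which is wide for 23 peaks. No paired analysis was possible because the result comes from no test. With 10 kb on either side, JB1 ZFP57 peaks and loci were 0 (11.7% of all genes had a peak) and the median BJ1 KAP1 coverage was 5.33%. With 50 kb, JB1 ZFP57 had 2 peaks at 2 loci (29.6% of all genes), JB1 KAP1 11 peaks at 6 loci (69.3% of all genes), BJ1 KAP1 45 peaks at 8 loci (94.2%), and the median coverage was 0.610% in JB1 and 3.91% in BJ1. With the gene body alone, JB1 ZFP57 had 0 peaks at 0 loci (7.05% of all genes), JB1 KAP1 3 peaks at 1 locus (17.3%), BJ1 KAP1 11 peaks at 1 locus (34.4%) and a median coverage of 0. With peaks wider than the median of their list (45.7% of the list kept in JB1 and 41.1% in BJ1 for KAP1), JB1 KAP1 had 1 peak at 1 locus (23.3% of all genes), found in BJ1 (100%, list 86.0%), and BJ1 KAP1 14 peaks at 7 loci (46.9%), of which 7.14% were found among the JB1 peaks kept (list 50.9%), against 17.4% of all 23 (list 45.3%). Without Esrrb, an alternative chosen after seeing the data, 2 JB1 KAP1 peaks were left, both found in BJ1 (100%). Of the BJ1 KAP1 peaks 11 were left, and 18.2% of them were found in JB1, against 17.4% with Esrrb. A promoter of 500 bp gave 0 BJ1 loci (12% of all genes), and one of 2500 bp gave 2 in BJ1 (20.3%) and 1 in JB1 (6.43%). TGCCGC alone was in 4.35% of the BJ1 KAP1 peaks at the loci, and chromosomes 1 to 19 alone gave 78.7% of genes with a BJ1 KAP1 peak. Wider windows count more bases and narrower ones fewer by construction, and no other cause was tested. Depth is unknown, so a missing peak is not an absence of binding.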
